A study of Mus musculus with 95 samples.

Results

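The lungs of 3 CD40L-KO and 3 C57BL/6 mice taken after 75 days of exposure to Pneumocystis murina were compared across all measured genes. These 6 arrays, of 95 in the series, were chosen by their titles alone, which give the strain, the 75 days and the exposure. Each sample was total RNA of lung homogenate on 1 single-colour Affymetrix expression array, and each array stands for 1 mouse by its label. Both groups were labelled female and 8 weeks old. Mice of both groups shared a cage with a seeder mouse heavily infected with P. murina. The CD40L-KO mice lack CD40 ligand, and their comparators are called C57BL in the labels and C57BL/6 in the design text. No experiment, cage or substrain is given for these 6 mice, and no unexposed mice of day 75 are in the labels used here. The comparison therefore gives the difference between strains late in exposure, and the unexposed mice of day 32 (3 CD40L-KO and 2 C57BL/6) were the nearest unexposed comparison of the strains.

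P. murina is a fungus that lives on the alveolar surface of mouse lung and spreads through the air between cage mates. CD40 ligand is a protein on activated T helper cells that binds CD40 on B cells, macrophages and dendritic cells. Through it B cells form germinal centres, switch from IgM to other antibody classes and become plasma cells, and macrophages are activated. Loss of CD40 ligand in people causes hyper-IgM syndrome, in which Pneumocystis pneumonia is a typical infection.

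Among the 6 lungs the difference lay mostly in antibody transcripts. Igha, the heavy chain of IgA, was 30.6-fold lower in the CD40L-KO mice, and Jchain, the chain that joins IgA and IgM into polymers, was 14.4-fold lower, both on the scale of log2(intensity + 8). Of 8251 genes, 28 (0.339%) differed at an adjusted p under 0.05 by limma, 21 lower (0.255%) and 7 higher (0.0848%) in CD40L-KO lung. Of the 21 lower genes, 15 were immunoglobulin heavy or kappa chain genes and another was Jchain. The 7 higher genes included Marco, a scavenger receptor of macrophages, and Ctsk, a cysteine protease. Over all genes the median difference, CD40L-KO minus C57BL/6, was 0.02 on the log2 scale. An unadjusted p under 0.05 was reached by 349 genes, 224 higher and 125 lower, where 412.55 were due by chance.

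**Figure D1:**
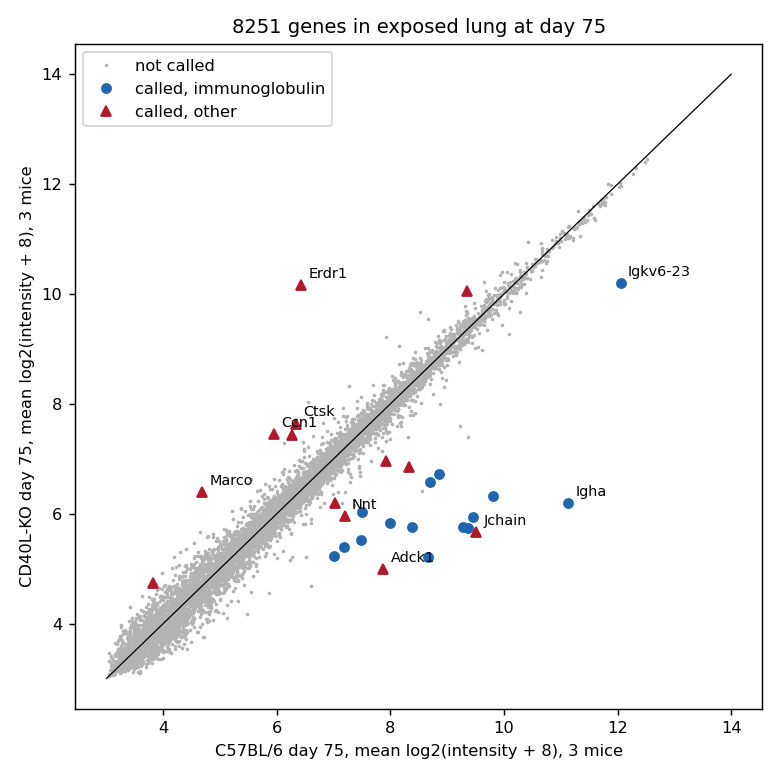
Mean log2(intensity + 8) of each of the 8251 genes in the 3 C57BL/6 mice of day 75 (horizontal axis) against the 3 CD40L-KO mice of day 75 (vertical axis), with the line of equal values. Blue circles are the 15 immunoglobulin heavy and kappa chain genes called, all below the line; red triangles are the other 13 called genes, 7 of them above it; grey points were not called.

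The arrays were of like quality. Correlations of log2 values lay between 0.977 and 0.987 within a strain and between 0.969 and 0.981 across strains, and the 3' Gapdh control probe set over its 5' counterpart, as a log2 ratio, lay between 0.14 and 0.27. Lung epithelium was well represented on every array, with the surfactant protein gene Sftpc between 5323 and 6419 and the club cell gene Scgb1a1 between 4637 and 5749. C57BL/6 replicate 2 stood apart. It had a mean log2 level of 9 adipocyte genes of 7.33 (5.16 to 5.86 on the other 5 arrays), and without it 28 genes were again called, of which 26 were shared with the full comparison. All 6 arrays carried the Y-linked transcript Eif2s3y (log2 level 5.67 to 6.36) and a low level of the X-inactivation transcript Xist (3.71 to 4.10), which goes against the label female in both strains alike. On the 11 arrays of day 32 Xist lay between 6.85 and 7.98 and Eif2s3y between 3.22 and 4.24. The pattern was the same in both strains at day 75, but sex and day cannot be told apart wherever day 75 is set against day 32. The same holds wherever C57BL/6 mice of day 75 are set against other C57BL/6 groups, all of which had high Xist. The CD40L-KO groups other than those of day 32 had low Xist. The median SD over genes was 0.16 in each day 75 group, against 0.19 and 0.22 in the exposed groups of day 32, whose spread enters the pooled estimate. On the 6 arrays alone 599 genes had an unadjusted p under 0.05, and 26 genes were called.

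The targeted transcript could not check the labels, because Cd40lg was close to the floor of 3 (log2 of the offset of 8) on all 6 arrays. Its mean log2 level was 3.18 in CD40L-KO and 3.23 in C57BL/6 mice. Nor did its receptor transcript differ beyond its error: Cd40 read 39.7, 49.5 and 49.2 in CD40L-KO and 42.1, 44.1 and 38.5 in C57BL/6 mice, a log2 difference of 0.12 (95% interval -0.21 to 0.46). Of the 16 measured genes nearest to Cd40lg on the X chromosome, none was called by limma and 1, Gpc3, a membrane proteoglycan, had an unadjusted p under 0.05 (log2 difference 0.38, SE 0.13). Among 22 genes of CD40 signalling and costimulation 0 were called by limma and 0 had an unadjusted p under 0.05, with a median difference of 0.11. For the 13 genes of the germinal centre and class switching 0 were called, 1 had an unadjusted p under 0.05, the activation marker Cd83 at 0.62 (SE 0.23), and the median was 0.08.

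Igha showed the largest difference of all genes. Its intensity (Entrez 238447) was 64.3, 73.7 and 57.9 in the 3 CD40L-KO mice and 2235, 2027 and 2434 in the 3 C57BL/6 mice. Every C57BL/6 value was far above every CD40L-KO value. The log2 difference was -4.94 (SE 0.31, limma adjusted p = 5.015e-07). Ighg3 (Entrez 380795), the heavy chain of IgG3, read 23.3, 28.9 and 36.2 against 603.0, 288.0 and 362.2, again with no overlap, and fell by 3.45 on the log2 scale (SE 0.35, adjusted p = 6.666e-05). Jchain (Entrez 16069) read 38.96, 49.6 and 40.3 against 821.2, 552.3 and 833.1, a difference of -3.85 (SE 0.46, adjusted p = 2.681e-04). In homogenised lung, fewer antibody-secreting cells and less antibody RNA per cell cannot be told apart.

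IgM transcripts depended on the probe set. The brightest probe set named Ighm, the heavy chain of IgM, read 448.5, 676.3 and 740.4 in CD40L-KO and 1467, 597.5 and 1462 in C57BL/6 mice. The groups overlapped, since C57BL/6 replicate 2 lay within the CD40L-KO range. The difference was -0.83 (SE 0.38, adjusted p = 1.00). With every named probe set tested, 7 of 16 probe sets named Ighm were lower and none was higher, and their differences ran from -5.16 to 0.68, so the symbol covers probe sets that behaved unlike each other. All 3 probe sets named Igha and 4 of 7 named Ighg3 were lower, and the single probe set of Ighd, the IgD heavy chain, was not called, at -0.25 (SE 0.23). By chain, 16 of 36 heavy chain and 14 of 27 kappa chain probe sets were lower. The single lambda chain probe set, Iglc1, was not called, at 0.05 (SE 0.34), and neither were the 2 of Igll1, a surrogate light chain of pre-B cells, at -0.22 and 0.31. Many of the heavy and kappa chain probe sets (14 and 13) carry the array maker's suffix for probes that match several members of a family, so they cannot be assigned to single segments.

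Variable segments, the parts of an antibody chain that bind antigen, were mostly lower, as were the constant chains Igha and Ighg3. Of 20 measured segments 13 were called lower and 0 higher by limma, with 1 at an unadjusted p under 0.05 in the higher direction, and the median difference was -1.94. In 18 of 20 every CD40L-KO value was below every C57BL/6 value, where 4.82% of all genes had groups so separated in that direction. Igkv9-120 read 34.2, 48.7 and 59.0 against 739.6, 365.6 and 858.3 and differed by -3.52 (SE 0.29, adjusted p = 9.239e-06). That is its brightest probe set, and its dimmer ones were not called, at -0.15 (SE 0.27) and 0.41 (SE 0.32). Igkv14-111 differed by -3.50 (SE 0.27), Ighv1-54 by -3.63 (SE 0.48) and Igkv6-14 by -3.48 (SE 0.36). A dimmer probe set named Igkv6-14 was not called, at 0.19 (SE 0.27). The other called segments were Igkv8-19, Ighv5-12, Igkv4-70, Igkv4-91, Igkv10-96, Igkv6-23, Igkv4-59, Igkv8-30 and Igkv4-68, from -2.63 to -1.48. The brightest of them kept a high signal in the knockout, as Igkv6-23 read 918.4, 1307 and 1334 against 4615, 3543 and 4651, a difference of -1.85 (SE 0.28). Igkv4-59 missed the threshold without CD40L-KO replicate 1 or 2 or C57BL/6 replicate 1 or 3 (adjusted p 0.0537 to 0.0993). Igkv4-68 did so without CD40L-KO replicate 2 or 3 or C57BL/6 replicate 1 or 3 (adjusted p 0.0523 to 0.113), and Igkv8-30 without C57BL/6 replicate 3 (adjusted p = 0.0508). The other 10 segments stayed under the threshold with each array left out.

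Adck1, named for a mitochondrial kinase-like protein, moved with this group. It read 14.1, 28.5 and 31.5 against 265.8, 177.7 and 247.7, with no overlap and a difference of -2.89 (SE 0.32, adjusted p = 1.208e-04). Its 3 probe sets all carry the family suffix, and all 3 were lower when each probe set was tested.

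**Figure D2:**
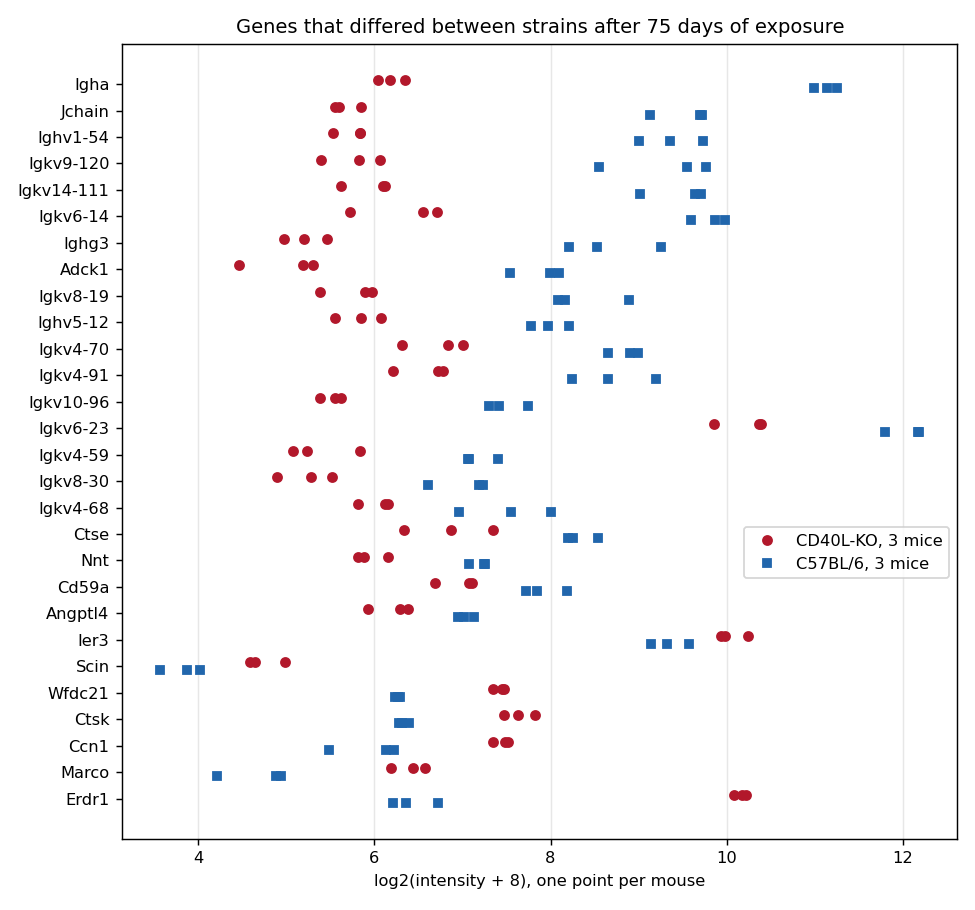
Log2(intensity + 8) of the 28 called genes on each of the 6 arrays of day 75, ordered by the difference; red circles are the 3 CD40L-KO mice and blue squares the 3 C57BL/6 mice. The groups do not overlap for any gene shown, with Igha at 6.04 to 6.35 against 10.99 to 11.25 at the top and Erdr1 at the bottom.

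Set against the other groups of the series, Igha, Ighg3, Jchain and Igkv9-120 had their highest means in the C57BL/6 mice of day 75, while Ighm did not. That group alone among the C57BL/6 groups had low Xist, so sex and day cannot be told apart here. Igha averaged 11.13 ± 0.13 (SD, n = 3) in C57BL/6 mice of day 75 and 10.91 ± 0.53 (n = 10) in exposed C57BL/6 mice of day 41, and lay between 8.29 and 8.65 in the unexposed C57BL/6 groups of days 32 to 41. In the 6 CD40L-KO groups it averaged 5.44 to 6.58, with 6.19 ± 0.16 (n = 3) at day 75. Jchain averaged 9.51 ± 0.33 (n = 3) in C57BL/6 mice of day 75 and 8.90 ± 0.31 (n = 10) in those exposed for 41 days, against 5.12 to 5.67 in the CD40L-KO groups. For each of the 4 transcripts the mice of the next group in order, exposed C57BL/6 mice of day 41, overlapped with it in range. The brightest probe set of Ighm averaged 10.76 ± 0.63 (n = 10) in those mice of day 41, 10.12 ± 0.78 (n = 5) in unexposed C57BL/6 mice of day 34 and 10.10 ± 0.74 (n = 3) in C57BL/6 mice of day 75. The levels in other groups of the series are given as a description. The strain difference of Igha was already called at day 32, at -3.22 (SE 0.35) in unexposed and -3.89 (SE 0.31) in exposed mice. In contrast, the segment Igkv9-120 differed by -0.85 (SE 0.33) in unexposed and -0.00 (SE 0.29) in exposed mice of day 32, and neither was called.

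**Figure D3:**
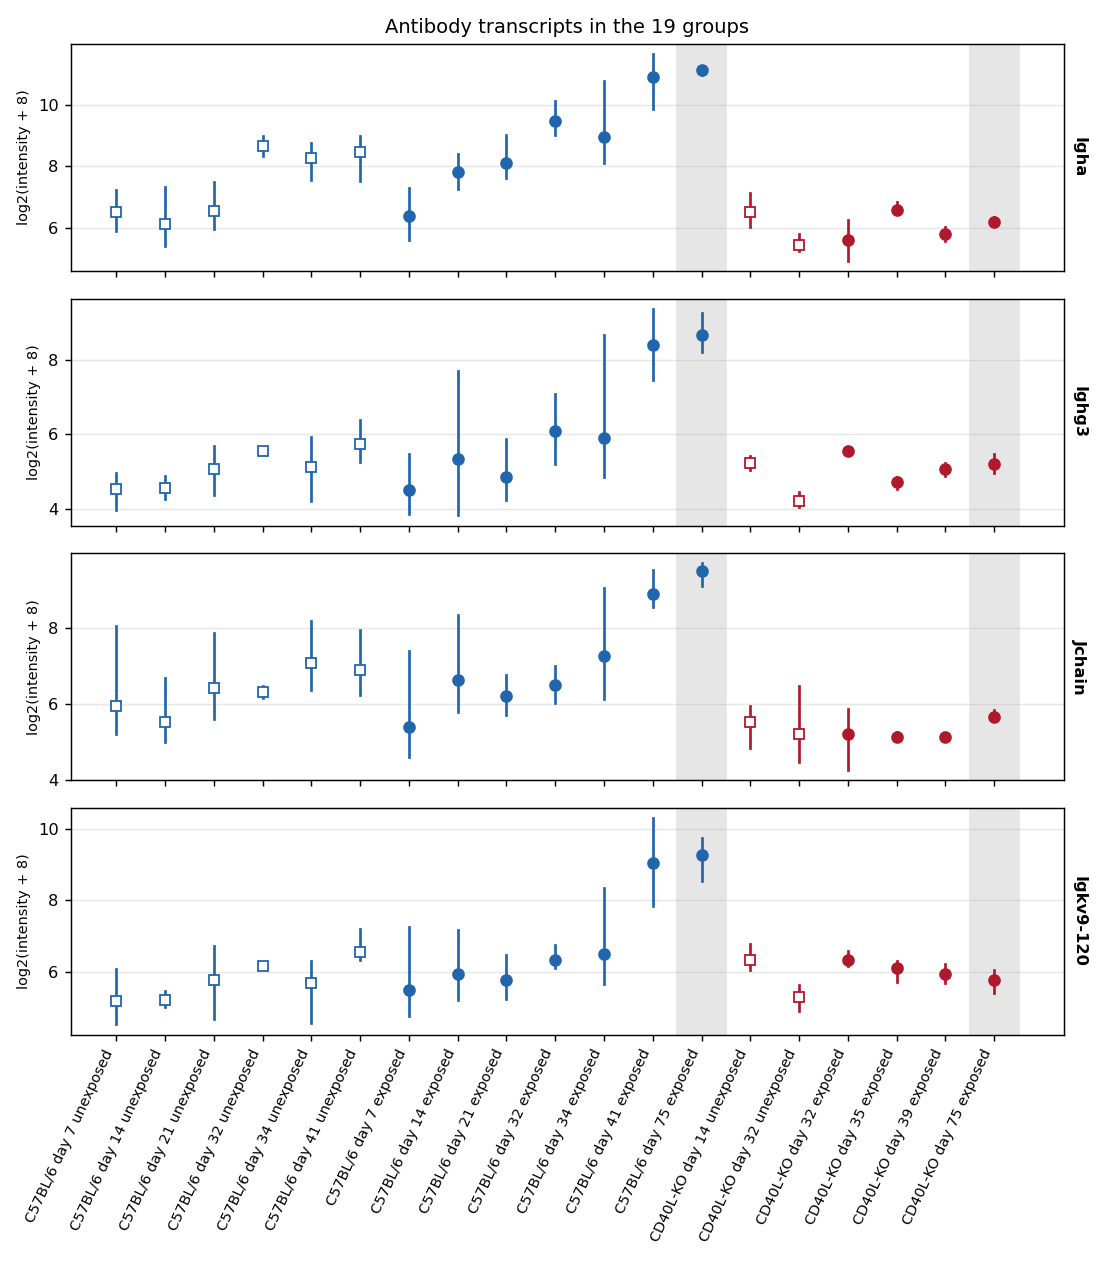
Mean log2(intensity + 8) of Igha, Ighg3, Jchain and Igkv9-120 in each of the 19 groups of the series, with lines from the lowest to the highest mouse; filled circles are exposed and open squares unexposed groups, C57BL/6 in blue and CD40L-KO in red, and the 2 groups of day 75 are shaded. Each gene is shown by its brightest probe set. Igha averaged 11.13 in C57BL/6 and 6.19 in CD40L-KO mice of day 75.

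B cell genes did not go down with the antibody genes. Of 17 B cell genes 0 were called by limma and 7 had an unadjusted p under 0.05, all higher. Among all 8251 genes, 224 were higher and 125 lower at that p. All 17 had a positive difference (4518 of 8251 genes did), the median was 0.36, and in 9 every CD40L-KO value was above every C57BL/6 value, where 7.96% of all genes were so separated. Blk, a kinase of the B cell receptor pathway, read 85.97, 103.2 and 114.7 against 58.3, 52.6 and 71.8, a difference of 0.67 (SE 0.16, adjusted p = 0.189). Cd79a, a signalling chain of that receptor, read 218.7, 317.0 and 288.6 against 182.3, 158.8 and 174.7, a difference of 0.64 (SE 0.17, adjusted p = 0.295). In both genes the lowest CD40L-KO mouse exceeded the highest C57BL/6 mouse, and the same list had a median of 0.52 in exposed and 0.21 in unexposed mice of day 32. Among the 14 constant chain and plasma cell genes the 3 called were Igha, Jchain and Ighg3, and the median of the list was -0.08. Pigr, the epithelial receptor that carries polymeric antibody into the airway, differed by 0.16 (95% interval -0.30 to 0.62).

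Macrophage genes held 2 of the 7 higher calls, Marco and Ctsk. Marco (Entrez 17167), by which macrophages bind and take up particles and microbes, read 64.9, 87.3 and 78.9 in CD40L-KO and 10.6, 21.5 and 22.8 in C57BL/6 mice. All 3 CD40L-KO values were above all C57BL/6 values. Marco rose by 1.72 on the log2 scale (SE 0.19, adjusted p = 1.713e-04). Ctsk (Entrez 13038), cathepsin K, a collagen-degrading protease best known from osteoclasts, read 169.4, 189.6 and 218.8 against 71.7, 75.9 and 70.0 and rose by 1.31 (SE 0.20, adjusted p = 0.00431). Of 35 genes of monocytes and macrophages 1 was called higher and 0 lower by limma, and the median was 0.35. At an unadjusted p under 0.05 were 5, all higher, beside 224 higher and 125 lower of all genes. In 17 of the 35 the groups were separated with CD40L-KO higher (7.96% of all genes), and in 0 with CD40L-KO lower. Alveolar macrophage genes gave 1 of 15 called, Marco itself, with 8 separated in the higher direction and a median of 0.25. Marco was also the single call among 19 genes of fungal recognition, whose median was 0.26. In a fit of all 95 arrays Marco missed the threshold (adjusted p = 0.19). Chil3, a chitinase-like protein abundant in alveolar macrophages, read 1984, 1787 and 2108 against 1337, 1657 and 1135, a difference of 0.52 (SE 0.21, adjusted p = 0.987). C1qa, a complement chain made by tissue macrophages, differed by 0.05 (95% interval -0.47 to 0.57).

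The bases before the start of Marco, Ctsk and Jchain are shown because these 3 called genes are the macrophage and antibody genes for which the RefSeq promoter table (GRCm38.p6) has an entry. They cover the 150 bases before the start in chr1:120505025-120505174 (minus strand), chr3:95499060-95499209 (plus strand) and chr5:88527898-88528047 (minus strand), read 5′ to 3′ along the gene.
Marco: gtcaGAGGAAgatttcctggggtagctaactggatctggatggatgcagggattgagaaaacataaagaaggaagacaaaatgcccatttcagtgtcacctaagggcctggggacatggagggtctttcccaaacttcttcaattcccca
Ctsk: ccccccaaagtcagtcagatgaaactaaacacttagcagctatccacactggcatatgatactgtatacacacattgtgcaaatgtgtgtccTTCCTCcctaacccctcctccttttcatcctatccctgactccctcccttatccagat
Jchain: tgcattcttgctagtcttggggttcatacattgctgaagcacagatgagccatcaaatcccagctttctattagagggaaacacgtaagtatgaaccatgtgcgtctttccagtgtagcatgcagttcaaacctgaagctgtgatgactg
Capitals mark GAGGAA, or TTCCTC on the other strand, the core letters of the PU box to which the myeloid and B cell factor PU.1 binds. Within 250 bases before the start, these letters occur on either strand in 23.3% of 32851 promoters, so a match is common. Counted from the start, the first base of the match lay at -146 in Marco. Ctsk had 2 matches within 250 bases, at -58 and, before the bases shown, at -233. The letters were not in the Jchain window. The octamer ATGCAAAT, known from antibody promoters and held by 1.60% of promoters on either strand, was in none of these 3 windows. Of the 28 called genes 8 had an entry in the table. The PU box letters also lay before Cd59a (-62), Adck1 (-87 and -54, in separate entries) and Ier3 (-148), so they were not particular to the macrophage genes. They did not occur before Ccn1 and Scin.

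Inflammatory lists held no called gene at this time, with medians between -0.10 and 0.22, though single genes differed by more. Of 27 acute phase, interleukin-17 and neutrophil genes 0 were called by limma, and the median was 0.22. An unadjusted p under 0.05 was reached by 4, all higher (224 higher and 125 lower of all 8251 genes). Lcn2, an iron-sequestering protein of epithelium and neutrophils, read 585.9, 890.6 and 1014 against 366.8, 377.7 and 330.4, without overlap, and differed by 1.16 (SE 0.30, adjusted p = 0.255). Saa3, an acute phase protein, read 78.1, 163.8 and 252.3 against 26.8, 76.0 and 109.2, with overlap, and differed by 1.16 (SE 0.48, adjusted p = 1.00). Among 31 interferon-gamma response genes 0 were called, 1 higher and 3 lower had an unadjusted p under 0.05, and the median was -0.10. Igtp, an interferon-inducible GTPase, read 67.0, 71.1 and 59.2 against 132.6, 173.6 and 104.0, a difference of -0.95 (SE 0.26, adjusted p = 0.355). The 10 separated genes on the lower side (4.82% of all genes) and 2 on the higher side (7.96%) held no called gene. The 23 type 2 and goblet cell genes had 0 called, 2 at an unadjusted p under 0.05 and a median of 0.05. Clca1, a secreted goblet cell protein, was high on a single array, C57BL/6 replicate 2 at 513.8, against 21.2 and 27.6 on the other C57BL/6 arrays and 64.8, 85.1 and 189.6 in CD40L-KO mice.

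T cell transcripts differed little. The 22 T cell genes had 0 called by limma, 2 at an unadjusted p under 0.05 and a median of 0.01. Cd3e, a chain of the T cell receptor complex, differed by 0.02 (95% interval -0.94 to 0.98), and the co-receptor Cd4 by 0.07 (-0.57 to 0.71). These intervals leave room for true differences up to their bounds. The co-receptor Cd8a and Ifng itself were dim, with no intensity above 16.0 on any of the 6 arrays. In 23 cytotoxic and natural killer cell genes 0 were called and 0 had an unadjusted p under 0.05. Of 11 MHC class II genes 0 were called and 1 had an unadjusted p under 0.05, H2-Oa at 0.73 (SE 0.26), and H2-Ab1, a class II chain that presents antigen, differed by 0.07 (95% interval -0.41 to 0.55).

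Cell cycle genes lay mostly on the higher side without a call. Of 39 measured, 0 were called by limma, 4 had an unadjusted p under 0.05, 30 had a positive difference and 17 were separated with CD40L-KO higher (7.96% of all genes), with a median of 0.24. Mki67, a marker of dividing cells, read 21.1, 27.9 and 40.4 against 15.6, 19.9 and 17.2, a difference of 0.54 (SE 0.24, adjusted p = 1.00). Aurkb, a mitotic kinase, differed by 0.96 (SE 0.37, adjusted p = 0.894). Both genes were dim, below the intensity of the median gene on these arrays.

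Immediate-early genes, which respond within minutes to many stimuli, held 2 of the higher calls. Ccn1, a matrix-associated immediate-early protein, read 155.1, 171.6 and 174.6 against 66.6, 62.3 and 36.7 and rose by 1.504 (SE 0.23, adjusted p = 0.00423). Ier3, a stress-response protein, read 1004, 1202 and 973.1 against 754.9, 632.7 and 556.0 and rose by 0.71 (SE 0.14, adjusted p = 0.0464). Its call was lost without any of the arrays except C57BL/6 replicate 1 (adjusted p 0.0854 to 0.376). Of the 21 genes of the list 7 were separated upward (7.96% of all genes) and 7 downward (4.82%). Fos and Egr1, both transcription factors, and the heat-shock gene Hspa1b are named here after their values were seen. Fos differed by 1.296 (SE 0.31, adjusted p = 0.181) and Egr1 by 1.49 (SE 0.37, adjusted p = 0.201). Hspa1b read 295.4, 94.8 and 145.5 against 418.7, 1159 and 575.4, a difference of -1.97 (SE 0.41, adjusted p = 0.0614). None of these 3 passed the threshold.

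Of the other higher genes, Wfdc21, a small secreted protein of the whey acidic protein family, read 170.2, 155.2 and 166.7 against 67.4, 70.7 and 69.4 and rose by 1.16 (SE 0.19, adjusted p = 0.0074). Its mean log2 level of 7.43 in CD40L-KO mice of day 75 compared with 5.62 to 6.76 in the other 18 groups. Scin, an actin-severing protein, was dim at 16.97, 16.1 and 23.8 against 3.9, 6.7 and 8.2 and rose by 0.92 (SE 0.16, adjusted p = 0.0135). Scin missed the threshold without CD40L-KO replicate 3 or C57BL/6 replicate 1 (adjusted p 0.107 and 0.102). With the mean of its probe sets Scin also missed it, at 0.54 (limma adjusted p = 0.334), and its dimmer probe set differed by 0.16 (SE 0.23). Angptl4, a secreted inhibitor of lipoprotein lipase, read 53.2, 70.7 and 75.2 against 131.9, 116.0 and 121.6 and fell by 0.83 (SE 0.14, adjusted p = 0.00788), and missed the threshold without C57BL/6 replicate 1 (adjusted p = 0.0646). Of its 4 probe sets 1 was called.

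A further set of 4 genes, Nnt, Erdr1, Ctse and Cd59a, had strain differences of the same sign at day 75 and in both comparisons of day 32, though not all of these passed the test. Other called genes kept their sign as well, among them Jchain, at -1.10 in unexposed and -1.31 in exposed mice of day 32. Nnt, a mitochondrial enzyme that makes NADPH, read 48.3, 63.3 and 51.0 in CD40L-KO and 144.1, 126.5 and 145.1 in C57BL/6 mice. The groups did not overlap, and Nnt fell by 1.24 (SE 0.16, adjusted p = 7.931e-04). Its difference was -1.66 (SE 0.18) in unexposed and -1.48 (SE 0.16) in exposed mice of day 32, both called. Erdr1 (Entrez 170942), named as a regulator of erythroid differentiation, read 1179, 1076 and 1145 against 97.4, 66.0 and 74.4 and rose by 3.72 (SE 0.39, adjusted p = 8.31e-05). It was higher by 2.43 (SE 0.43) and 2.35 (SE 0.39) in unexposed and exposed mice of day 32, both called. Its second, dimmer probe set was not called, at 0.28 (SE 0.37). Ctse, the aspartic protease cathepsin E, fell by 1.48 (SE 0.28, adjusted p = 0.0231), and Cd59a, which protects cells from complement, fell by 0.96 (SE 0.19, adjusted p = 0.0333). In mice of day 32 Ctse differed by -1.55 (SE 0.31, adjusted p = 0.0664) in the unexposed and by -1.94 (SE 0.28, adjusted p = 5.72e-04) in the exposed. Cd59a differed by -0.85 (SE 0.21, adjusted p = 0.159) and -0.77 (SE 0.19, adjusted p = 0.0175) there, so both passed in exposed mice and missed the threshold in unexposed mice. Ctse was called with 1 of the 6 arrays left out, CD40L-KO replicate 3, and missed the threshold without each of the others (adjusted p 0.0644 to 0.187). With the mean of its probe sets Ctse differed by -0.87 and missed it too (limma adjusted p = 0.175). The dimmest of those probe sets differed by 0.09 (SE 0.30). Cd59a was called without C57BL/6 replicate 2 and missed it without each of the others (adjusted p 0.0734 to 0.262).

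These 4 genes also split the C57BL/6 groups by day. Nnt averaged 5.74 to 6.04 in the C57BL/6 groups of days 7, 14 and 21 and 6.87 to 7.32 in those of days 32 to 75, against 5.60 to 6.40 in the CD40L-KO groups. Erdr1 averaged 9.63 to 10.14 in the C57BL/6 groups of days 7 to 21 and 6.43 to 7.86 in those of days 32 to 75, with 8.28 to 10.29 in CD40L-KO groups. Ctse averaged 6.70 to 6.94 in the early and 7.18 to 9.08 in the later C57BL/6 groups, and 6.67 to 7.22 in CD40L-KO groups. Cd59a averaged 6.61 to 7.07, 7.31 to 8.30 and 6.38 to 7.51 in the same order, so for these 2 genes the later C57BL/6 groups and the CD40L-KO groups met at their edges. The level was therefore not fixed by the strain name. As background, the C57BL/6J substrain is known to carry a deletion in Nnt that C57BL/6N mice lack. The substrain of the mice and the loss of CD40 ligand cannot be told apart in the comparison at day 75.

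**Figure D4:**
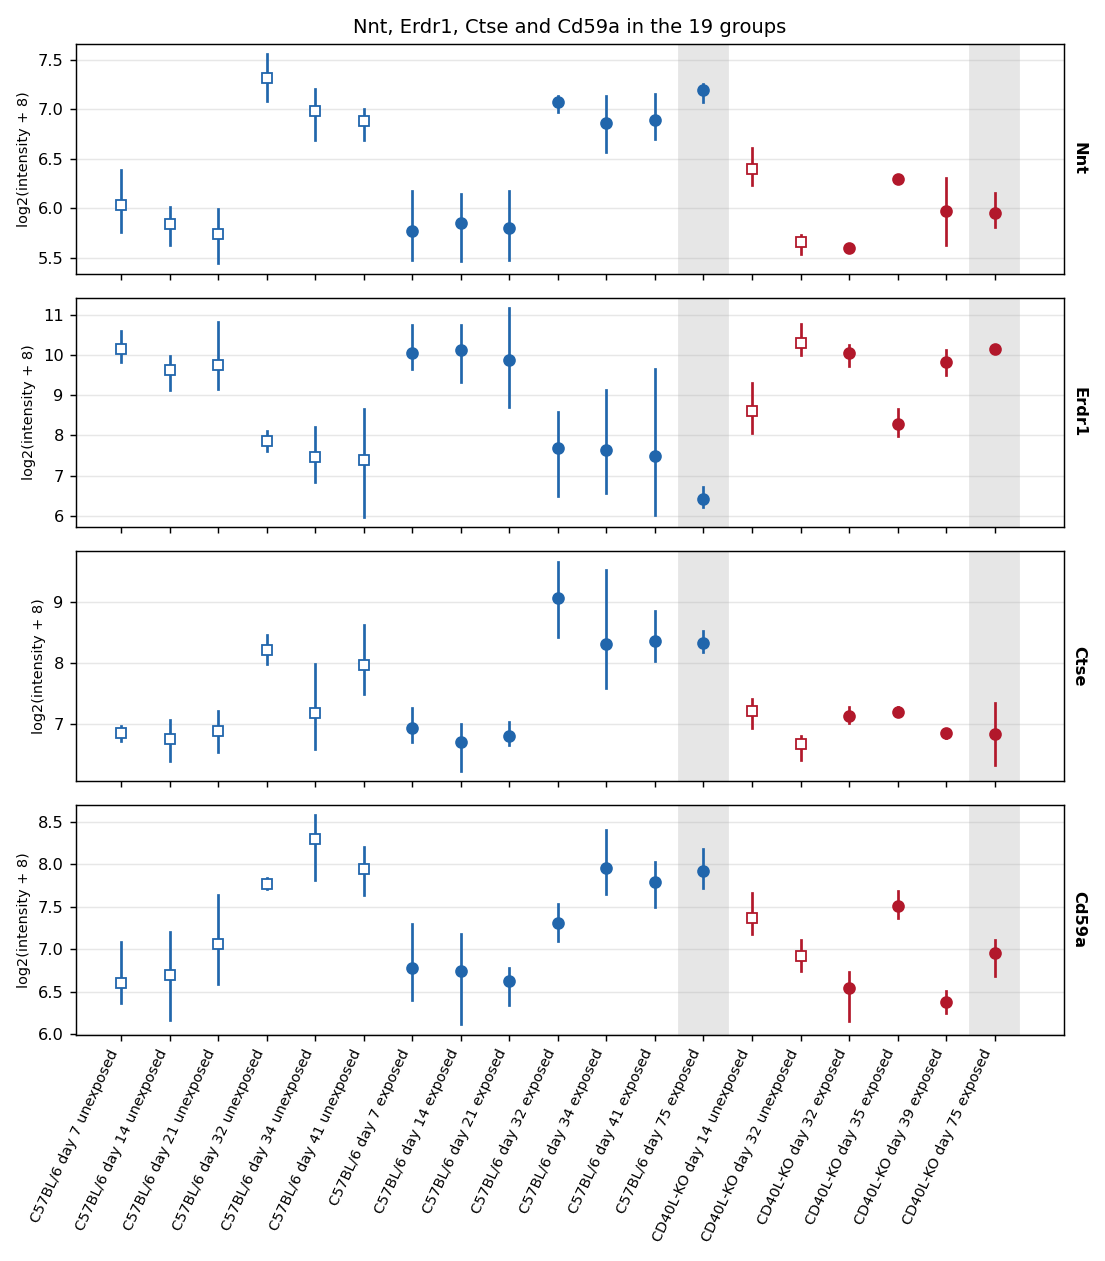
Mean log2(intensity + 8) of Nnt, Erdr1, Ctse and Cd59a in each of the 19 groups, with lines from the lowest to the highest mouse; filled circles are exposed and open squares unexposed groups, C57BL/6 in blue and CD40L-KO in red, and the 2 groups of day 75 are shaded. Nnt averaged 7.19 in C57BL/6 and 5.95 in CD40L-KO mice of day 75, and the C57BL/6 groups of days 7 to 21 lie at 5.74 to 6.04.

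Of the 28 genes called at day 75, 23 had a difference of the same sign in the unexposed mice of day 32 (82.1%) and 18 in the exposed mice of day 32 (64.3%). Over all 8251 genes those shares were 50.3% and 49.4%. In the unexposed mice 3 of the 28 were themselves called with that sign, and in the exposed mice 5 were. Of the 28, 15 were immunoglobulin genes, many read by family probe sets, so the 28 do not count as separate observations.

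Whether the strain difference had changed since day 32 was tested directly. Between exposed mice of day 75 and of day 32 it changed for 248 genes (3.01%), upward for 184 (2.23%) and downward for 64 (0.776%). Without C57BL/6 replicate 2 of exposed day 32 this count was 671, and it was 157 without C57BL/6 replicate 3 of exposed day 32, 151 without CD40L-KO replicate 2 of day 75, 165 without C57BL/6 replicate 1 of day 75 and 145 without C57BL/6 replicate 3 of day 75. The chemokine Cxcl9, which interferon-gamma induces and which attracts T cells, changed most clearly, by 5.16 (SE 0.48, adjusted p = 6.407e-05). It averaged 3.96 in CD40L-KO and 8.75 in C57BL/6 mice exposed for 32 days, and 5.16 and 4.79 in those exposed for 75 days, where the difference was 0.38 (95% interval -0.34 to 1.09). The gap at day 32 thus had no counterpart at day 75, with C57BL/6 mice at a lower level there. Of the 31 interferon-gamma response genes 16 changed upward, and the median strain difference was -1.63 at day 32 and -0.10 at day 75. Of 35 monocyte and macrophage genes 19 changed upward, with medians of -0.83 and 0.35, and of 39 cell cycle genes 16, with medians of -0.88 and 0.24. Saa3 changed by 7.05 (SE 0.68) and Lcn2 by 3.53 (SE 0.43). Of the 20 variable segments 10 changed downward, with medians of -0.00 at day 32 and -1.94 at day 75. Sex and day cannot be told apart in this test, as the transcripts of Xist and Eif2s3y given above differed between the days.

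**Figure D5:**
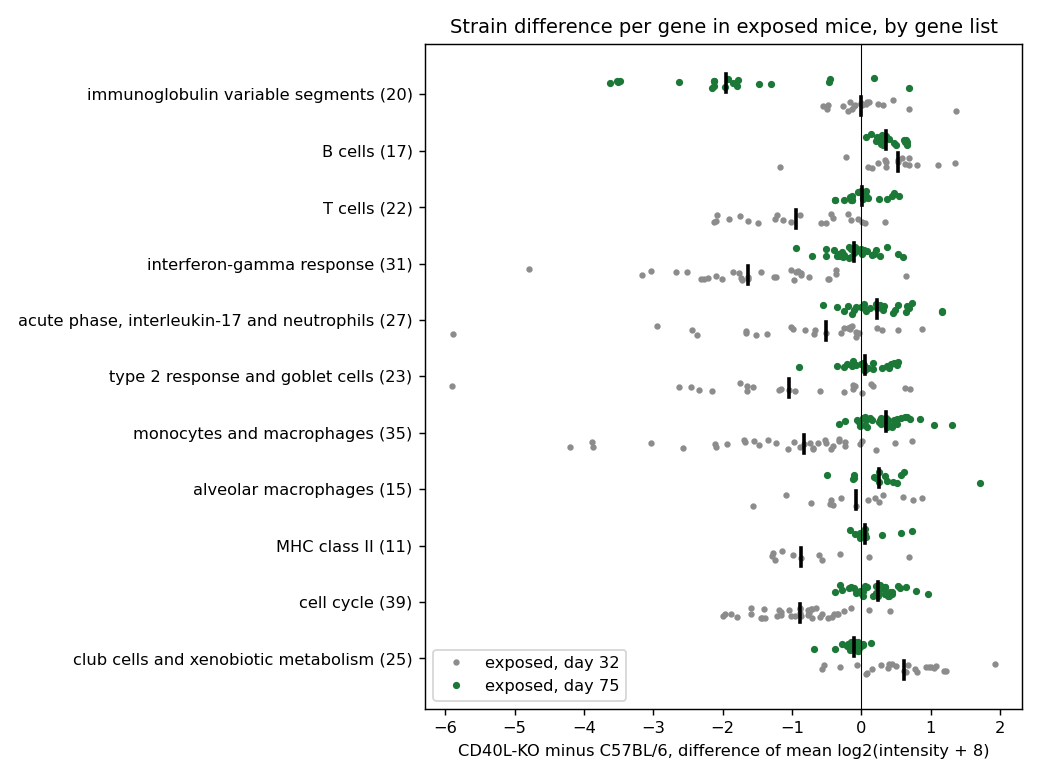
Strain difference, CD40L-KO minus C57BL/6, of each gene of 11 lists as a difference of mean log2(intensity + 8); green points are exposed mice of day 75, grey points exposed mice of day 32, black bars the medians, and the number of genes is in brackets. The interferon-gamma response list has medians of -0.10 at day 75 and -1.63 at day 32, and the variable segments -1.94 and -0.00.

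Against the unexposed mice of day 32 the strain difference of day 75 changed for 7 genes (0.0848%), 3 upward (0.0364%) and 4 downward (0.0485%). The segments Igkv14-111, Igkv9-120 and Ighv5-12 changed by -3.00 (SE 0.40), -2.67 (SE 0.44) and -1.82 (SE 0.29). Marco changed by 2.16 (SE 0.29) and Ctsk by 1.83 (SE 0.31), where the difference in unexposed mice had been -0.44 and -0.52. The other 2 were Ddx49, an RNA helicase, at -1.41 (SE 0.19) and Hnrnpl, a splicing factor, at 1.82 (SE 0.27). Neither of those differed at day 75 itself (0.05, SE 0.13, and 0.19, SE 0.18), where the unexposed mice of day 32 had differed by 1.46 (SE 0.14) and -1.63 (SE 0.20). The count was 64 without CD40L-KO replicate 3 of unexposed day 32, 1 without C57BL/6 replicate 2 of unexposed day 32, and 4 without CD40L-KO replicate 2 of unexposed day 32, CD40L-KO replicate 1 or 2 of day 75 or C57BL/6 replicate 1 of day 75. On the arrays of CD40L-KO replicates 1 and 2 of unexposed day 32 the mean log2 level of squamous epithelium genes was 7.40 and 7.85, against 4.65 to 5.01 on the 6 arrays of day 75, and with that level as a covariate 0 genes were called by limma and 543 had an unadjusted p under 0.05.

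Structural and epithelial lists had no calls by limma. The 25 club cell and xenobiotic metabolism genes had a median of -0.11, the 10 genes of type II alveolar cells 0.13, the 23 endothelial genes -0.03, the 9 ciliated cell genes -0.06 and the 34 collagen and matrix genes 0.16. Of these, 7 collagen and matrix genes and 1 of type II cells had an unadjusted p under 0.05, all higher, and none of the other 3 lists had any. Beside them, 224 of all 8251 genes were higher and 125 lower at that p. Sftpc differed by -0.07 (95% interval -0.30 to 0.16) and Scgb1a1 by -0.04 (-0.29 to 0.21), so a change of the size seen for Marco would have been outside both intervals. Genes of tissues beside the lung were also compared: 11 heart muscle genes had a median of -0.43 with 0 of 11 positive, 9 adipocyte genes -0.28, and 14 squamous epithelium genes -0.07, all with 0 called and 0 at an unadjusted p under 0.05. Their part in the results above was not tested for heart muscle. With the adipocyte level as a covariate 28 genes were called, 26 of them shared.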

How the data were processed

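The deposited table holds linear intensities of 12487 probe sets on 95 arrays, which the authors had scaled to a common trimmed mean (100.05 to 100.07 after leaving out 2% at each end). The method of probe summarisation was not given in the sources used here. Values were used as log2(intensity + 8); fold changes on this scale understate those of dim genes. The platform annotation gave 10855 probe sets 1 gene, 396 more than 1 and 1236 no gene; 22 control probe sets were left out and of the 10833 others 10817 had an Entrez identifier in RefSeq. The brightest probe set stood for each of 8251 genes, of which 2072 had several.

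Groups came from the labels. The 3 comparisons (the strain difference at day 75 and its change from exposed and from unexposed day 32) were fitted in R 4.3.3 by limma 3.58.1 (lmFit, then eBayes) on the 19 arrays of the 7 groups of days 32, 39 and 75, so their spread is shared. Benjamini-Hochberg adjustment ran over 8251 genes with a threshold of 0.05; SEs and 95% intervals are from that fit. Separated groups are 3 values all above or below the other 3. In data simulated for the strain difference at day 75 on 8251 genes, 42, 50, 50 and 50 of 50 genes changed by 1, 2, 3 and 4 (log2) were found, with 11 false calls among 8051. The simulated errors were normal and independent between genes. More genes were changed than were called in the data, which makes the adjusted threshold easier to pass. These shares therefore need not hold for the data. The number of arrays limits the precision.

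Members, lists and the rule for naming genes were chosen with earlier results of these data known. The rule took a set of genes always given, the 15 largest called differences in each direction among genes above the median intensity with separated groups, from each list the 5 largest called members or else the 2 with the smallest p, 8 neighbours on each side of Cd40lg and the 8 smallest p of each change from day 32. Igkv8-30, Igkv4-68, Ctse, Cd59a, Angptl4, Scin, Fos, Egr1, Hspa1b, Ighd, Iglc1 and Igll1 are named outside it where it does not take them, after their values were seen. Same-numbered mice of the strains did not vary together (correlations of -0.04, -0.06 and -0.02), and the descriptions number them separately. Alternatives were offsets of 2 and 32, a filter at a mean intensity of 30, quantile normalization, all 95 arrays, the mean of probe sets, the 6 arrays alone, replicate blocks, Gapdh and squamous covariates, array weights and leaving out each array. Added after seeing the data were every named probe set, an adipocyte covariate and the groups of days 39 and 75 alone. Tables were made with pandas 2.3.3 and numpy 2.4.6 in Python 3.11.15, and figures with matplotlib 3.10.9.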

Additional observations from a re-analysis of the deposited data

Results flagged for a closer look

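The strain difference itself differed between exposed mice of day 75 and of day 32, by a test of the change (limma, log2 scale), for these genes among the smallest p: Cxcl9 by 5.16, the NF-kappaB regulator Nfkbiz by 2.09, Saa3 by 7.05, the fatty acid binding protein Fabp1 by -2.08, the mucin Muc5ac by 1.75, Scin by 2.03, Igkv9-120 by -3.52 and Lcn2 by 3.53. Their adjusted p ran from 6.407e-05 to 4.977e-04. At day 75 itself Nfkbiz differed by 0.57 (SE 0.14, adjusted p = 0.189) and Muc5ac, below 3 intensity units on all 6 arrays, by 0.10 (SE 0.14). The change from unexposed mice of day 32 passed for Igkv14-111 (-3.00), Ddx49 (-1.41), Marco (2.16), Hnrnpl (1.82), Ighv5-12 (-1.82) and Ctsk (1.83), and for the segment Igkv9-120 by -2.67, with adjusted p from 0.00524 to 0.026. In both tests day 75 and day 32 also differed in the sex transcripts, whose part was not tested.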

How the results depend on the processing

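The strain difference at day 75 gave 28 calls, and 22 to 30 with each array left out in turn. It gave 75 with array weights (39 higher, 36 lower), 13 on the 6 arrays alone with a replicate block and 50 among all named probe sets. The replicate block over the 7 groups gave 26, and other settings 25 to 33. In every planned setting and with each array left out, 12 of the 28 genes kept their call: Igha, Ighg3, Jchain, Ighv1-54, Igkv9-120, Igkv14-111, Igkv6-14, Igkv4-70, Igkv4-91, Igkv10-96, Adck1 and Erdr1. In the fit of all 95 arrays Marco, Angptl4, Ier3, Igkv4-68, Igkv6-23 and Scin missed it (adjusted p 0.065 to 0.81), and on the 6 arrays alone Angptl4, Cd59a, Ctse, Ier3, Igkv4-68 and Scin (0.101 to 0.216). The change from exposed day 32 (248) gave 393 with all 95 arrays, 212 with the replicate block and 145 to 671 with an array left out. The change from unexposed day 32 (7) gave 18 with offset 32, 3 with all 95 arrays, 4 with the replicate block, and 0 with the Gapdh covariate or the squamous covariate (limma; 769 and 543 at an unadjusted p under 0.05), and 1 to 64 with an array left out. The causes were not tested. Of 2890 values of single genes 125 lost the threshold and 21 gained it. Where a gene was called in the main fit or in the alternative, 0 changed sign. Changes of sign in genes called in neither were not counted. Genes near the floor, such as Cd40lg, Ifng and Muc5ac, allow no statement on small changes.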
